A study of Mus musculus with 23 samples.

Results

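Claudins are the membrane proteins whose strands form the tight junction, the seal between neighboring epithelial cells. The table of counts held rows for 16 claudins among its 27207 genes, and 10 of them are described here, namely Cldn1, Cldn2, Cldn3, Cldn4, Cldn6, Cldn7, Cldn12, Cldn15, Cldn18 and Cldn23. These 10 were chosen by symbol, with their levels over the 6 groups of libraries known. Their levels and fold changes are therefore a description and carry no test. The cells were tumor cells of 2 mouse lines of pancreatic cancer. The KC line carries Ptf1a Cre/+ and the KPC line Pdx1 Cre/+, so that both have a Cre driven from a pancreatic gene, and their other alleles are not reported here. KC cells were profiled in 2D culture (n = 6), as organoids in floating collagen I gels at day 7 (n = 3) and at day 13 (n = 5 in batch 1 and n = 3 in batch 2), and as organoids in Matrigel, a basement membrane extract, at day 13 (n = 3). KPC organoids were profiled in collagen at day 13 in batch 2 (n = 3). The collagen was from rat tail, the Matrigel was growth factor-reduced, and all cultures were kept in DMEM with FBS. Each genotype was 1 line, so that genotype and line cannot be told apart, and all 2D libraries came from cells lysed without the collagenase step that freed the organoids.

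In an epithelium, the set of claudins decides which ions and how much water pass between the cells. Some claudins, such as Cldn2 and Cldn15, form channels, while others, such as Cldn1, Cldn3 and Cldn18, tighten the barrier, and their strands are tied to the cell cortex by scaffold proteins such as ZO-1 and ZO-3 (Tjp1 and Tjp3). Cldn18 is known from the stomach and the lung and appears in pancreatic tumors, and Cldn6 is known from embryonic epithelia.

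Libraries were made from the 3′ ends of polyadenylated RNA, and each unique molecular identifier (UMI) stands for 1 captured molecule, so that a count does not grow with transcript length. Totals ran from 1221451 to 2471058 UMIs per library (median 1845921). Levels are CPM, that is UMI counts scaled to the same library total after edgeR's TMM correction, and 3 counts, the most that a count of 0 allows, correspond to 1.16 to 3.22 CPM. Libraries of day 7, of batch 1 of day 13 and of Matrigel came from separate experiments. For the 2D, batch 2 and KPC libraries the sources used here do not say so, and p-values that involve them measure the spread between these libraries, which may be technical. Unless another choice of libraries or setting is named, every p-value and SE below comes from the same model of all 23 libraries. The spread of the 2D, batch 2 and KPC libraries therefore enters all comparisons, also those between other groups. In bulk RNA fewer cells of a type and less RNA per cell cannot be told apart. The 2D replicates 1 to 3 stood apart from 4 to 6, with TMM factors of 0.738 to 0.772 against 1.035 to 1.062 and with 2.19 to 2.62% of their UMIs in the row CT010467.1, which the annotation lists as a ribosomal RNA gene, against 1.03 to 1.16%. All 8 ductal epithelial markers, among them Krt7, Krt8, Krt18, Krt19, Epcam, Cdh1 and Sox9, had more than 3 counts in every group, none of the 5 endothelial markers in the table did, and of the leukocyte and acinar markers in the table only Cd68 and Cela1 did. Fibroblast markers summed to 32.7 to 187 CPM per library.

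Which claudins do these cells use? Cldn18 made up most of the claudin UMIs in every library. Its share of the UMIs of the 10 claudins was 60.9 to 69.7% in 2D, 81.5 to 86.7% in collagen at day 7, 85.4 to 91.5% and 96.1 to 97.5% in the batches of day 13, 76.7 to 79.4% in Matrigel and 64.0 to 78.2% in KPC. The second claudin was Cldn2 in every KC library and Cldn7 in KPC, with 11.4 to 23.8%. Cldn2 held 24.8 to 32.6% in 2D, 9.24 to 12.5% at day 7 and 13.4 to 15.3% in Matrigel. In the batches of day 13 it held 3.93 to 9.83% and 1.14 to 2.19%. In KC libraries Cldn7 never passed 1.52%. The summed level of the 10 claudins was 726 ± 151 CPM in 2D (SD, n = 6), 1190 ± 245 at day 7 (SD, n = 3), 974 ± 80.1 and 2266 ± 153 in the batches of day 13 (SD, n = 5 and n = 3), 836 ± 27.2 in Matrigel (SD, n = 3) and 1039 ± 74.3 in KPC (SD, n = 3).

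**Figure D1:**
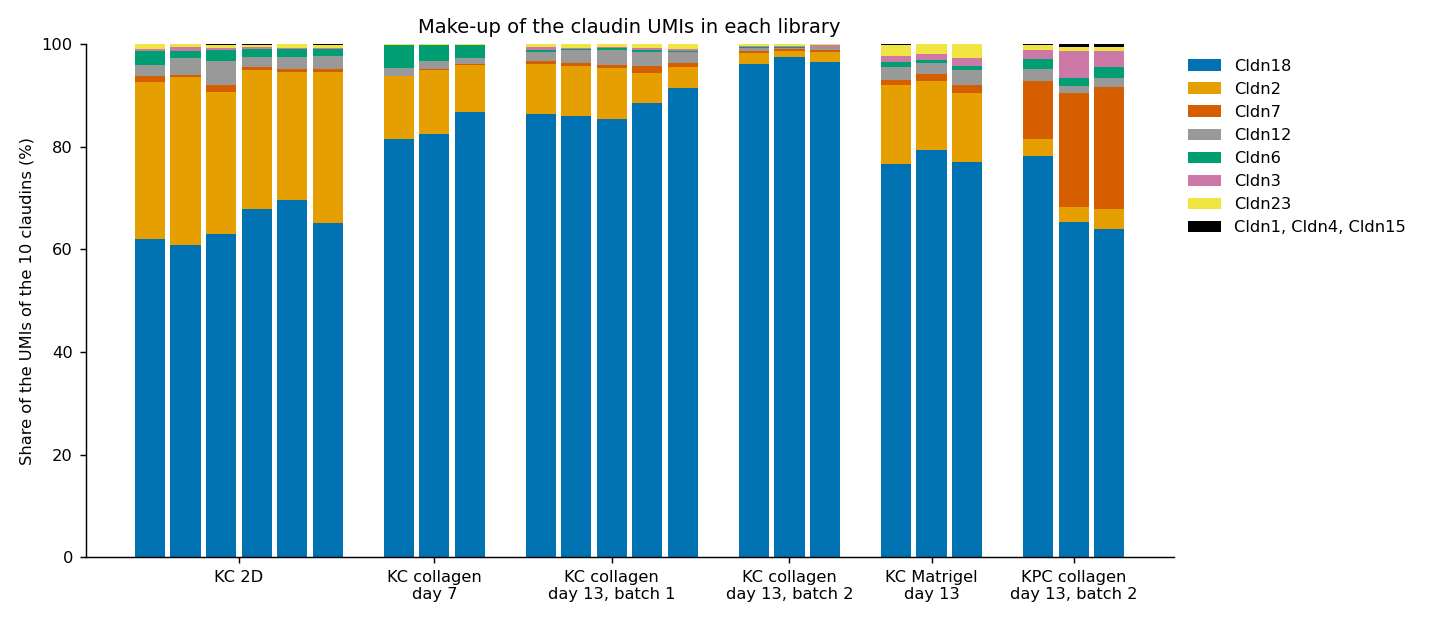
Each bar is 1 library, and its colored parts are the shares (%) of the UMIs of the 10 claudins taken by each gene, with Cldn1, Cldn4 and Cldn15 joined. Cldn18 fills 60.9% or more of each bar, Cldn2 is the second largest part in all KC bars, and Cldn7 takes 11.4 to 23.8% in the 3 KPC bars.

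The other members were sparse or absent. Cldn1, a barrier claudin of the skin, had at most 3 counts in any library, and Cldn15, a channel claudin of the intestine, at most 1, so that both stayed at the limit of detection at this depth. Cldn4 had at most 1 count in each of the 20 KC libraries. The 6 claudin rows that are no members (Cldn8, Cldn9, Cldn10, Cldn16, Cldn20 and Cldn34c1) had at most 2 counts in any library. The filter on low counts kept 7 members, namely Cldn2, Cldn3, Cldn6, Cldn7, Cldn12, Cldn18 and Cldn23.

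**Figure D2:**
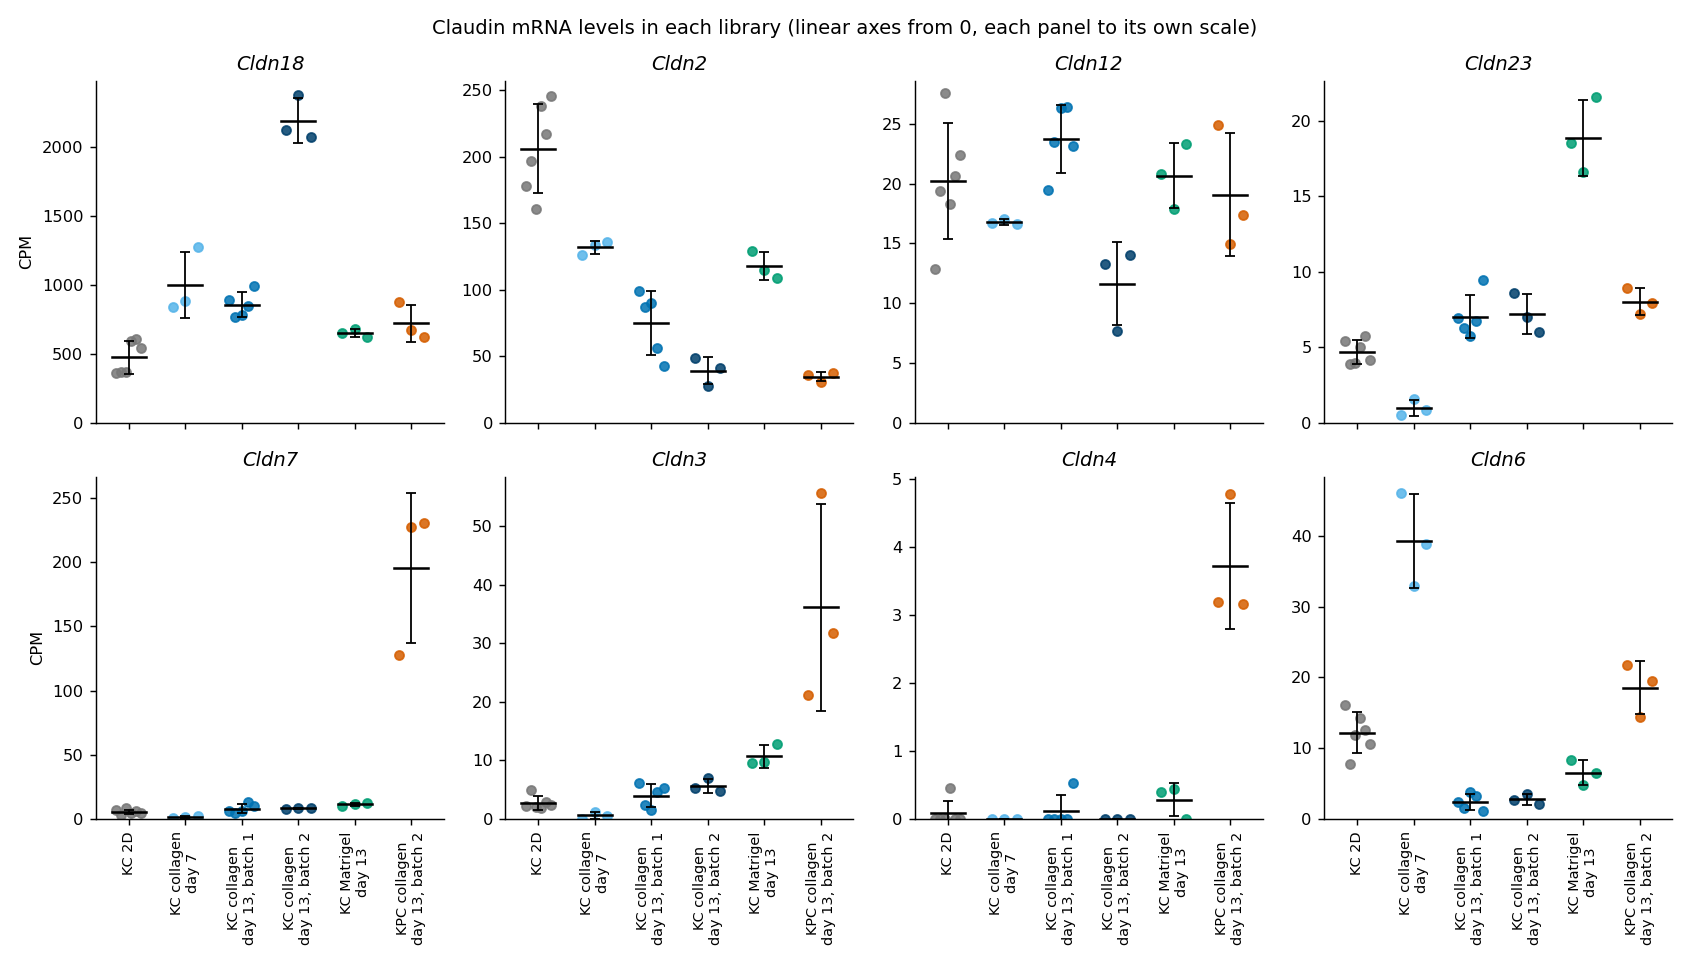
CPM of 8 claudins on linear axes from 0, 1 panel per gene and 1 point per library, with the mean (line) and SD (bar) of each of the 6 groups. Cldn18 is highest in the second batch of KC collagen organoids (2073 to 2378 CPM), Cldn2 in 2D (161 to 246 CPM), Cldn23 in Matrigel (16.6 to 21.6 CPM), Cldn6 at day 7 (32.9 to 46.1 CPM), and Cldn7, Cldn3 and Cldn4 in KPC.

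Cldn18 was higher in all organoids than in 2D. In 2D it read 362 CPM at the lowest, 456 at the median and 610 at the highest. At day 7 in collagen the 3 libraries read 839, 881 and 1277 CPM. At day 13 the libraries of batch 1 read 889, 763, 784, 843 and 990 CPM, and those of batch 2 read 2124, 2378 and 2073 CPM. The batches of the same cells, gel and day did not overlap (log2 fold change 1.36 ± 0.178 SE, batch 2 minus batch 1), while day 7 and day 13 of batch 1 did (-0.23 ± 0.178, or 0.44 when all 8 KC collagen libraries of day 13 were used). Matrigel libraries read 649, 681 and 620 CPM, all below the collagen libraries of the same day and batch. The KPC libraries read 875, 671 and 622 CPM, below the KC libraries of their own batch and within or below the range of batch 1. In the order of the group means (batch 2 collagen, day 7, batch 1 collagen, KPC, Matrigel, 2D), batch 2 of KC collagen stood clear of day 7, and Matrigel stood clear of 2D, while the neighbors in between overlapped. Within 2D, replicates 1 to 3 (362 to 368 CPM) and 4 to 6 (543 to 610 CPM) did not overlap, so that the difference of day 7 from 2D was 0.75 on the log2 scale against replicates 4 to 6 alone and 1.44 against 1 to 3 alone. For day 13 the same choice gave 0.58 and 1.21.

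The level of Cldn18 can be set beside other genes of the stomach. Of 10 gastric markers (Tff1, Tff2, Gkn1, Gkn2, Gkn3, Muc5ac, Muc6, Anxa10, Vsig1 and Ctse), 9 had more than 3 counts in each group, and none was at 0. Their summed level was 5641 to 9768 CPM in 2D, 3082 to 4336 at day 7, 20490 to 31310 and 43740 to 48210 in the batches of day 13, 12340 to 13780 in Matrigel and 32660 to 40340 in KPC. Like Cldn18, the list was highest in batch 2 of the KC collagen organoids. Unlike Cldn18, it was lowest at day 7, and the part of this cell program in the level of Cldn18 was not tested. Among all tested genes that are no claudins, the ones with the pattern most like that of Cldn18 over the 23 libraries were Tagln2 (Pearson r = 0.931 of log2 CPM), Krt19 (0.921), a keratin of duct cells, and Smap1 (0.916).

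Cldn18 lies at chr9:99689461-99717267 on the minus strand (GRCm38), and RefSeq lists 2 starts 7.2 kb apart. The gene is known to use different first exons in lung and stomach, and counts from 3′ ends do not tell the transcripts apart, so that the level above is that of both. The 250 bases before each start (RefSeq, GRCm38.p6, minus strand) are shown because this gene holds most of the claudin UMIs.
Cldn18 upstream start, chr9:99717268-99717517: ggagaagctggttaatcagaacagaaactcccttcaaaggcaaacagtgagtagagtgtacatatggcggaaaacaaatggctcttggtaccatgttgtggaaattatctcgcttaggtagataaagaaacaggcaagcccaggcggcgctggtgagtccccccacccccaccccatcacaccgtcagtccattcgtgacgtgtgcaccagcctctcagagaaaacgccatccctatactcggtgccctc
Cldn18 downstream start, chr9:99710064-99710313: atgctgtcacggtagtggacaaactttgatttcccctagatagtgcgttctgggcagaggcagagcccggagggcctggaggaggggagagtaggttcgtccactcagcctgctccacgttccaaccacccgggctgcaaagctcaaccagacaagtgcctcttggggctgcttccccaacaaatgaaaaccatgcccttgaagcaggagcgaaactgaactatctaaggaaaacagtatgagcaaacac
Neither window held CACCTG, the E-box bound by the repressors Snail and Zeb, or AACCGGTT, the motif of the grainyhead-like factors, on either strand, and no letters are in capitals here for that reason.

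Cldn2, which forms a channel for cations and water, ran the other way and was highest in 2D. The 2D libraries ran from 161 CPM over a median of 207 to 246 CPM. Day 7 libraries read 126, 133 and 136 CPM. At day 13, batch 1 read 99.2, 87.3, 89.97, 55.98 and 42.6 CPM, and batch 2 read 48.3, 27.9 and 41.3 CPM. All collagen organoids thus lay below all 2D libraries, and all day 13 libraries below those of day 7, while the batches of day 13 overlapped. In Matrigel it read 129, 115 and 109 CPM, above all 5 collagen libraries of batch 1. In KPC it read 35.8, 30.5 and 37.0 CPM, overlapping KC of the same batch (log2 fold change -0.19 ± 0.264 SE, or -0.85 against all 8 KC collagen libraries of day 13). Replicates 4 and 5 of batch 1 stood below replicates 1 to 3 for Cldn2 and above them for Cldn7 (12.5 and 9.98 against 4.32 to 6.22 CPM). As for Cldn18, the 2D replicates 1 to 3 (161 to 197 CPM) and 4 to 6 (217 to 246 CPM) did not overlap. The genes most like Cldn2 in pattern were Rsu1 (r = 0.947), Fkbp1a (0.931) and Acat2 (0.926), over 23 libraries that share their groups.

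Cldn12, a claudin without the C-terminal motif that binds ZO proteins, had the group means closest to each other among the members tested, from 11.6 ± 3.46 to 23.8 ± 2.85 CPM (SD, n = 3 and n = 5). The 2D libraries ran from 12.9 over a median of 20.0 to 27.6 CPM. Day 7 libraries read 16.7, 17.0 and 16.6 CPM, batch 1 of day 13 read 19.5, 23.5, 26.3, 26.4 and 23.1, Matrigel read 20.9, 17.9 and 23.3, and KPC read 24.9, 15.0 and 17.4 CPM. Batch 2 of the KC collagen organoids had the lowest mean, with 13.2, 7.67 and 13.99 CPM, without overlap with batch 1 of the same cells and day. The difference of KPC from KC within batch 2 (log2 fold change 0.70 ± 0.257 SE) became -0.05 when all 8 KC collagen libraries of day 13 were used. Likeness to other genes was weaker than for the other members tested, with Pomgnt2 (r = 0.763), Aars2 (0.755) and Rnf139 (0.739) nearest.

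Cldn23, a claudin known from the surface cells of the gut, was lowest at day 7 and highest in Matrigel. It ran from 3.88 over a median of 4.57 to 5.76 CPM in 2D and read 0.49, 1.55 and 0.85 CPM at day 7, which are 1 to 4 counts per library. At day 13 it read 6.95, 6.23, 5.74, 6.72 and 9.46 CPM in batch 1 and 8.61, 6.97 and 5.998 CPM in batch 2. The 3 Matrigel libraries, at 18.5, 16.6 and 21.6 CPM, lay above every other library. KPC libraries read 8.94, 7.18 and 7.92 CPM and overlapped KC. The genes nearest in pattern were Sord (r = 0.942), Adgrg1 (0.942) and Pglyrp1 (0.938). Intestinal markers, of which 10 were in the table, were also lowest in sum at day 7 (1966 to 2038 CPM), but the KC libraries in collagen at day 13 (5922 to 6797 CPM over both batches) and in Matrigel (5761 to 6657 CPM) overlapped, KPC libraries read 3781 to 5504 CPM, and Muc2 was at 0 in 2D, at day 7 and in Matrigel. Their part in the level of Cldn23 was not tested.

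Cldn7, Cldn3 and Cldn4 shared their highest group, the KPC organoids. Cldn7, a claudin of the lateral membrane that binds the adhesion protein EpCAM, read 128, 227 and 231 CPM in KPC. The KC libraries of the same batch read 7.28, 8.37 and 7.997 CPM, so that KPC was 24.7-fold higher (log2 fold change 4.62 ± 0.331 SE). No KC library passed 12.5 CPM, with 2.91 to 7.89 in 2D (median 4.94), 0.49, 1.55 and 2.13 at day 7, 5.56, 4.32, 6.22, 12.5 and 9.98 in batch 1 of day 13, and 9.44, 11.3 and 12.2 in Matrigel. Day 7 stood clear below 2D, and batch 1 of day 13 in collagen overlapped both with 2D and with Matrigel, while batch 2 overlapped with 2D and lay below Matrigel.

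Cldn3, a barrier claudin and with Cldn4 a receptor of the Clostridium perfringens enterotoxin, read 21.1, 55.7 and 31.7 CPM in KPC against 5.30, 6.97 and 4.67 in KC of the same batch, 6.36-fold higher (log2 fold change 2.67 ± 0.415 SE). In KC it ran from 1.83 over a median of 2.25 to 4.85 CPM in 2D, was at the limit of detection at day 7 with 0, 3 and 1 counts, and read 6.03, 2.40, 1.44, 4.48 and 5.25 CPM in batch 1 of day 13. Matrigel libraries read 9.44, 9.59 and 12.8 CPM, above every KC library outside Matrigel. Against the limit of 3 counts at day 7 (mean 1.30 CPM), the mean of Cldn3 was at least 2.05-fold higher in 2D and at least 3.01-fold higher in batch 1 of day 13. Those means rest on 2 to 6 counts per library in 2D and 3 to 13 in batch 1, so that the bounds are themselves uncertain. Cldn4 had 5, 8 and 6 counts in the KPC libraries (3.19, 4.79 and 3.17 CPM) and none in KC of the same batch. The mean of 3.72 CPM is at least 1.83-fold above the limit of 3 counts in those KC libraries. Over the 23 libraries, log2 CPM of Cldn3 and Cldn7 had r = 0.90, in libraries that share their groups and of which the KPC ones were high in both. The genes most like each were Tnfrsf1a (0.894), Igfbp5 and Oit1 (0.870 each) for Cldn3 and Igf2bp3 (0.924), Bglap3 (0.920) and Tlcd2 (0.907) for Cldn7. Cldn2 ran against Cldn7 (r = -0.64), Cldn18 (-0.62) and Cldn3 (-0.61), and Cldn18 had r = -0.05 with Cldn7 and 0 with Cldn3.

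Cldn3 and Cldn4 are neighbors on chromosome 5, at chr5:134986214-134987472 and chr5:134945119-134946934 (GRCm38), with their starts 39.3 kb apart on opposite strands, and Cldn7 lies on chromosome 11 at chr11:69964779-69967885. The 250 bases before the RefSeq starts (GRCm38.p6) of the 3 genes that were highest in KPC are shown with CACCTG or its reverse complement CAGGTG in capitals.
Cldn3, chr5:134985964-134986213, plus strand: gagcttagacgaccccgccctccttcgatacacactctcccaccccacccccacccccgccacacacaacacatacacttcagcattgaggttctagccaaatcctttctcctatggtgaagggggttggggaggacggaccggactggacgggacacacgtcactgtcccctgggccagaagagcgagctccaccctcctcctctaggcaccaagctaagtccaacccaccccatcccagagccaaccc
Cldn4, chr5:134946935-134947184, minus strand: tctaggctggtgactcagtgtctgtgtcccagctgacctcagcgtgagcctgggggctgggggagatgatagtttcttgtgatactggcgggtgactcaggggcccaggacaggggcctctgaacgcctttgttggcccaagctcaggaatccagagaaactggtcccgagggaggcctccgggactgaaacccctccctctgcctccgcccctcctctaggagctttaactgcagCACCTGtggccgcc
Cldn7 upstream start, chr11:69964529-69964778, plus strand: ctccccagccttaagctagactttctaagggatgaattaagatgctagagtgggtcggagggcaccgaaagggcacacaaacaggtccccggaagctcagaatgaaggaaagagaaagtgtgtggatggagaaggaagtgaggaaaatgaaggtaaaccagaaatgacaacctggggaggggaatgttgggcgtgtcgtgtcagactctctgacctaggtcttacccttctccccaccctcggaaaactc
Cldn7 downstream start, chr11:69965171-69965420, plus strand: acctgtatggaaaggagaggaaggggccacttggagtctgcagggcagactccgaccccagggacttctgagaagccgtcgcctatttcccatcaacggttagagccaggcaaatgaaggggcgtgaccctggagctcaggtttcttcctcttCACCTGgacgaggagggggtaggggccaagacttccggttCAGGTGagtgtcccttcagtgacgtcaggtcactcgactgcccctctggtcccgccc
In windows that run to 50 bases past the start, Cldn4 held the E-box 14 bases before and 11 after its start, Cldn3 held it once, 31 bases after its start and outside the stretch printed, and the downstream start of Cldn7, 642 bases from the other, held it 97 and 57 bases before. Of the 32851 RefSeq windows, 20.2% held it. Among the 13 windows of the 9 members in the table, 4 did, 1 each for Cldn3, Cldn4, Cldn6 and Cldn7. AACCGGTT, found in 0.146% of all windows, was in none of the 13. These matches are letters in a window, not binding sites.

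The genes around Cldn7 on chromosome 11 were read in the same comparison. Of 31 tested genes within 500 kb that are reported here, 8 were called higher and 2 lower in KPC, where 9.58% and 10.4% of all genes were, with log2 fold changes from -1.32 (Cd68) to 1.76 (Sat2) and a median of 0.28. None came near the 4.62 of Cldn7, and its nearest called neighbors were Dvl2, 35.8 kb away (1.04 ± 0.314 SE, adjusted p = 0.0217, edgeR), and Kctd11, 83.4 kb away (-0.75 ± 0.218, adjusted p = 0.0203). Around Cldn3, 3 of 13 tested neighbors were called higher and none lower (median 0.10), with Mettl27, 53.8 kb away, the highest (1.66 ± 0.329, adjusted p = 0.000475).

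**Figure D3:**
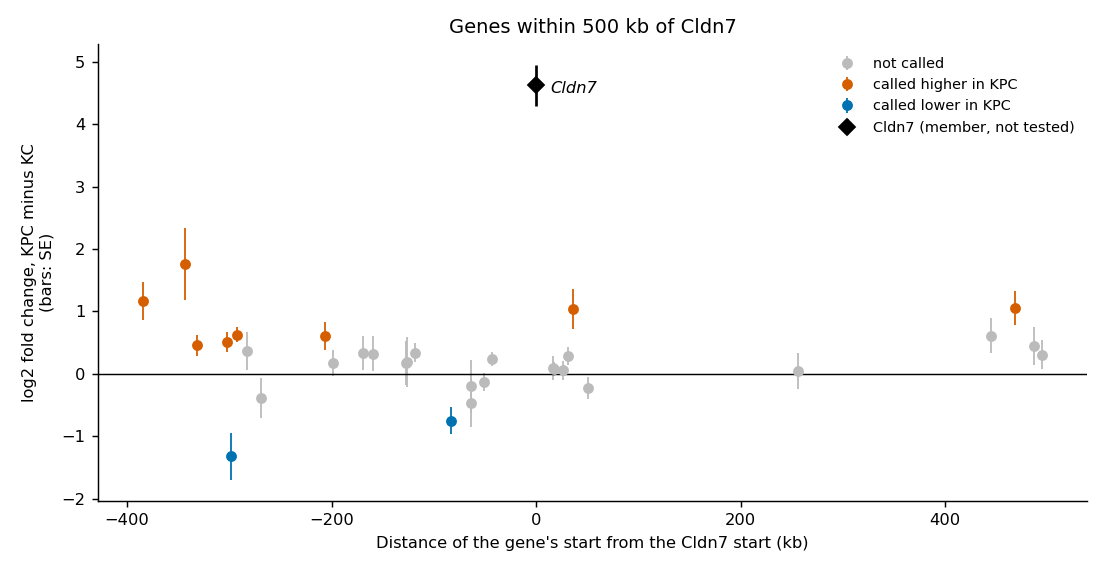
log2 fold change (KPC minus KC, batch 2, with its SE as a bar) of Cldn7 and of 31 other tested genes within 500 kb, against the distance of each start from that of Cldn7 in kb, with called genes in color. Cldn7 stands at 4.62, and the 31 genes between -1.32 and 1.76.

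Cldn6 was the only member tested whose highest group was day 7. It read 46.1, 32.9 and 38.8 CPM there, against 7.76 at the lowest, 12.2 at the median and 16.1 at the highest in 2D. At day 13 it was down to 2.32, 1.44, 3.83, 3.14 and 1.05 CPM in batch 1 and to 2.65, 3.49 and 2.00 CPM in batch 2, which are 2 to 8 counts per library. Day 7 stood clear above 2D, and 2D clear above both batches of day 13, which overlapped. Batch 1 of day 13 was 16-fold below day 7 (log2 fold change -4.0 ± 0.303 SE). Matrigel read 8.26, 4.796 and 6.41 CPM, above all 5 collagen libraries of batch 1, and KPC read 21.7, 14.4 and 19.5 CPM, 6.72-fold above KC of batch 2. Its neighbor and paralog Cldn9 had at most 1 count in any library. The genes most like it were Psmc3ip (r = 0.931), Msln (0.919), the gene of mesothelin, and Gatm (0.915). Cldn6 lies at chr17:23679249-23682446 (GRCm38), and the 250 bases before its RefSeq start are shown with the E-box, 93 bases before the start, in capitals.
Cldn6, chr17:23679115-23679364, plus strand: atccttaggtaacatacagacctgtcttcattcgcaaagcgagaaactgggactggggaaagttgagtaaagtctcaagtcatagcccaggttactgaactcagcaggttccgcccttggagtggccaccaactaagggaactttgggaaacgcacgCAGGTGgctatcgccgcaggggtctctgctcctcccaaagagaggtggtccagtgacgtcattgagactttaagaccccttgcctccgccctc
A second match lay 40 bases after the start, outside the stretch printed.

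**Figure D4:**
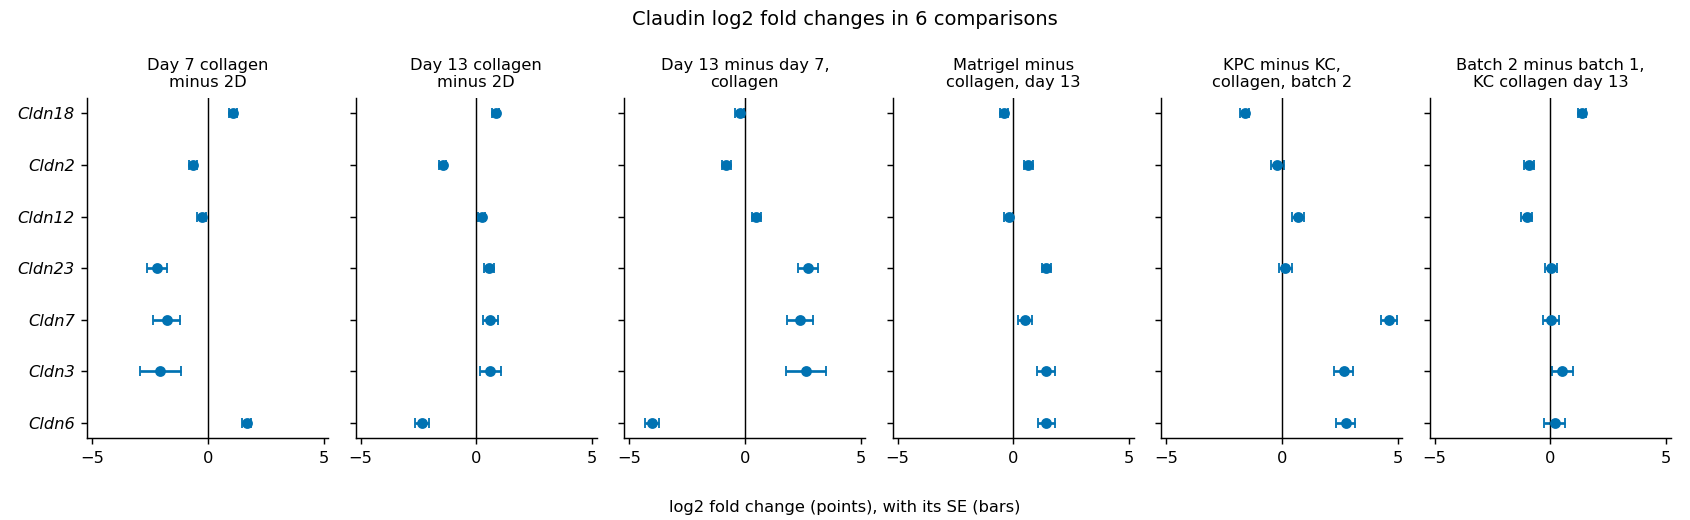
log2 fold change (points) and SE (bars) of the 7 claudins kept by the filter, 1 panel per comparison, with the direction in each panel's title. Cldn7 reaches 4.62 in KPC against KC, Cldn6 reaches -4.0 from day 7 to day 13, and Cldn23 and Cldn7 lie at -2.18 and -1.77 in day 7 against 2D. The points of Cldn3 in both comparisons with day 7 are fitted values against a group at the limit of detection and not measured sizes. Those of Cldn23 and Cldn7 rest on at most 5 counts per library at day 7.

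What happened to the claudins when 2D cells were moved into collagen for 7 days, when branches extend? Of the 7 members, 5 were lower than in 2D and 2 higher, with a median log2 fold change of -0.65 (the same with Cldn3 at its bound of -1.04), against -0.02 over all 11144 genes tested. Cldn23 (-2.18 ± 0.433 SE), Cldn7 (-1.77 ± 0.581), Cldn2 (-0.65 ± 0.185) and Cldn3, which was at its limit, were lower with no overlap, Cldn6 (1.67 ± 0.204) and Cldn18 (1.07 ± 0.173) were higher with no overlap, and Cldn12 (-0.27 ± 0.195) overlapped. The share of all genes without overlap was not computed, here or in the comparisons below. Lack of overlap therefore describes each member alone and does not set the claudins apart from other genes. Over all genes, 24.8% were called higher and 26.4% lower at an adjusted p under 0.1. Other junction genes were tested and read from 6 lists. The lists too were drawn up with earlier results of these data known, so that p-values and counts of calls are read with that limit. Of their 61 tested members 20 were called higher and 19 lower (median -0.13). Among the 11 other membrane proteins of the junction, 6 fell and 3 rose. The partners of the claudins in the strands fell, namely Marveld3 (-2.37 ± 0.368, adjusted p = 2.25e-06, edgeR), Marveld2 (-1.70, adjusted p = 4.71e-05) and Ocln (-1.44, adjusted p = 3.03e-08), as did Igsf5 (-0.89), Cxadr (-0.60) and F11r (-0.43), while Ildr2 (2.73 ± 0.220, adjusted p = 2.24e-10), Clmp (1.0) and Jam2 (0.87) rose. Epcam, whose protein binds and stabilizes Cldn7, fell (-1.73 ± 0.314, adjusted p = 5.44e-05), and Ehf, an epithelial ETS factor, fell furthest (-2.48). Ehf was 1 of 11 epithelial factors tested, of which 4 were called higher and 3 lower. Of the 19 scaffold genes tested, 8 were called higher, among them Mpdz (1.13), and 3 lower, among them Tjp3 (-1.09). Tjp1 was not called (0.24 ± 0.165). Both Spint1 (-1.34) and Spint2 (-0.51), inhibitors of the protease matriptase, fell. At day 7, Marveld3 (1.55 to 2.13 CPM) and Spint1 (0.98 to 3.84 CPM) were near the limit of 3 counts (1.16 to 1.47 CPM). The sizes of their changes are therefore uncertain. Of the 5 tested repressors, Zeb2 rose (1.15, adjusted p = 0.0132) and Twist1 fell (-0.48). Against the 2D replicates 1 to 3 alone, Tjp3 (-0.11, adjusted p = 0.711) and Zeb2 (0.62, adjusted p = 0.206) were not called, and Zeb2 also lost its call with a replicate block (adjusted p = 0.101). F11r was not called against replicates 4 to 6 alone (-0.13, adjusted p = 0.314), without day 7 replicate 2 (-0.35, adjusted p = 0.113) or with library totals alone (-0.22, adjusted p = 0.105).

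From day 7 to day 13 in collagen, when lumens form, Cldn23, Cldn7 and Cldn3, which had been lowest at day 7, were higher again. The day 13 libraries of this comparison are those of batch 1. Cldn23 (2.72 ± 0.422 SE, 6.60-fold), Cldn7 (2.38 ± 0.560, 5.2-fold), Cldn3 and Cldn12 (0.50 ± 0.191) were higher with no overlap, Cldn6 and Cldn2 (-0.81 ± 0.195) were lower with no overlap, and Cldn18 overlapped. For Cldn12 the direction depended on the batch, since batch 2 (7.67 to 13.99 CPM) lay below day 7 (16.63 to 17.05 CPM). With all 8 KC collagen libraries of day 13 its log2 fold change was 0.23. Both this comparison and the last use the day 7 libraries, so that they are not independent. In both, the day 7 levels rest on 1 to 4 counts per library for Cldn23 and 1 to 5 for Cldn7, so that the sizes of their folds are uncertain. The same limit holds for the junction genes Marveld3 and Spint1, whose day 7 levels were also low. Over all genes, 27.1% were called higher and 28.1% lower. Of the 61 junction genes 29 were called higher and 12 lower (median 0.38 against -0.01 over all genes). Of the 11 membrane proteins 8 rose, Marveld3 (3.05 ± 0.360, adjusted p = 5.26e-09), Ildr1 (2.56), Ocln (1.88 ± 0.144, adjusted p = 1.06e-10), Marveld2 (1.87), Igsf5 (1.42), F11r (0.44), Cxadr (0.41) and Lsr (0.38), Ildr2 (-3.19, adjusted p = 7.67e-12) and Jam2 (-1.29) fell, and Clmp was not called. In batch 2, Ildr1 (2.00 to 6.62 CPM) overlapped with day 7 (2.98 to 5.88 CPM), while Marveld3 (18.1 to 25.2 CPM) lay above it (1.55 to 2.13 CPM). All 4 tested genes of the list of claudin stabilizers and their proteases were called higher, Spint1 (3.46 ± 0.383, adjusted p = 1.22e-09) and Spint2 (1.05), Epcam (3.27 ± 0.300, adjusted p = 3.85e-10), from 4.65 to 7.85 CPM at day 7 to 45.5 to 75.1 CPM at day 13, and St14, which encodes matriptase, at few counts in both groups (0.43 to 0.98 and 0.48 to 4.73 CPM, adjusted p = 0.0624). Of the 11 epithelial factors tested 7 were called higher and none lower, and of the 5 repressors Zeb1 (-1.11 ± 0.268, adjusted p = 0.00107) and Zeb2 (-1.01) fell. Esrp1 was among those called higher, at 0 CPM in all day 7 libraries and 0 to 2.10 CPM at day 13, where no fold can be given, and it lost its call in 5 of 14 alternatives, among them without any 1 of the day 7 libraries or without replicate 5 of batch 1 (adjusted p = 0.12 to 0.171). The fall of Zeb1 rests on batch 1, since batch 2 (9.064 to 17.33 CPM) overlapped with day 7 (10.79 to 20.14 CPM). Zeb2 in batch 2 (3.332 to 6.622 CPM) lay below day 7 (12.01 to 12.79 CPM). Cxadr was not called without day 7 replicate 2 (0.35, adjusted p = 0.109). Tjp3 rose (1.87), and Tjp1 (0.07 ± 0.165) was not called.

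**Figure D5:**
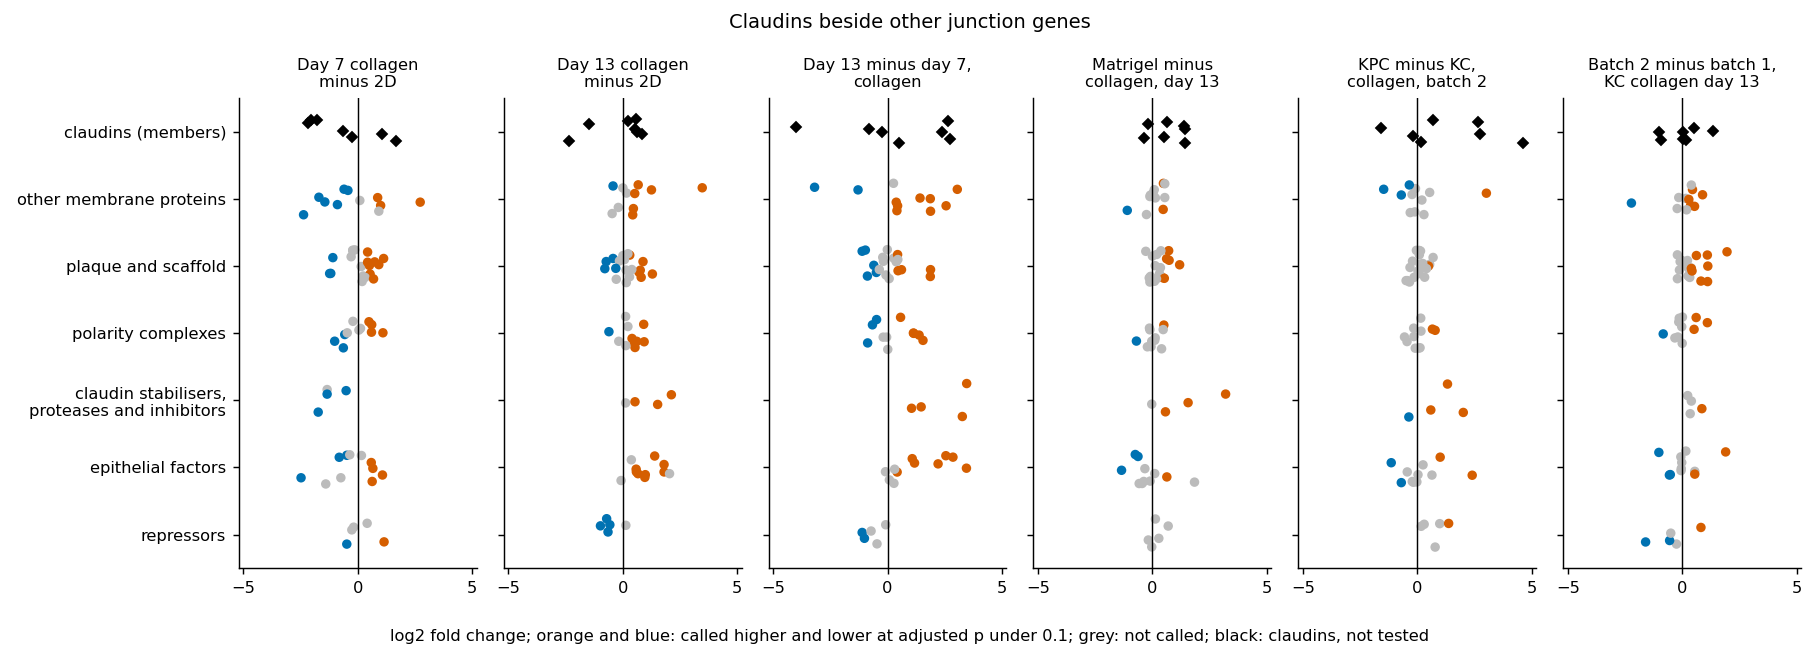
log2 fold changes of the 7 claudins (black diamonds, not tested) above those of 61 tested junction genes in 6 lists, 1 panel per comparison, with genes called higher in orange, called lower in blue and not called in gray, and spread vertically for legibility only. From day 7 to day 13, 29 genes are called higher and 12 lower, and the 4 genes of the stabilizer list are all called higher.

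Day 13 collagen organoids of batch 1 against 2D gives the change over the whole culture. Cldn18 (0.84 ± 0.149 SE) was higher and Cldn2 (-1.46 ± 0.163) and Cldn6 (-2.33 ± 0.307) were lower, with no overlap, and Cldn3 (0.59 ± 0.453), Cldn7 (0.61 ± 0.328), Cldn12 (0.23 ± 0.164) and Cldn23 (0.54 ± 0.226) overlapped with 2D. Of all genes 23.3% were called higher and 26.3% lower. Junction genes were called higher in 29 and lower in 10 of 61 (34 and 3 when libraries were scaled by their totals alone). That scaling also moved all genes, with 3613 called higher and 1692 lower, against 2592 and 2934 with TMM. Ildr1 (3.48 ± 0.435, adjusted p = 2.32e-08, edgeR), Spint1 (2.13, adjusted p = 5.50e-08), Ovol2 (1.81), Epcam (1.53, adjusted p = 6.31e-07), Clmp (1.26), Tjp3 (0.77), Marveld3 (0.68), Igsf5 (0.53), Lsr (0.47), Ocln (0.44) and Tjp1 (0.31) rose. In batch 2, Ildr1 (2.00 to 6.62 CPM) overlapped with 2D (0.589 to 4.93 CPM), while Spint1 (35.1 to 37.3 CPM) lay above 2D (3.84 to 9.67 CPM). Twist2 (-0.97), Amot (-0.78), Amotl2 (-0.72) and Jam2 (-0.42) fell. Without the 2D replicates 1 to 3, Jam2 (0.02, adjusted p = 0.959), Tjp1 (0.17, adjusted p = 0.394), Twist2 (-0.50, adjusted p = 0.277) and Amot (-0.58, adjusted p = 0.184) were not called, nor was Igsf5 without replicates 4 to 6 (0.08, adjusted p = 0.728) or Amot without the filter on low counts (adjusted p = 0.127). Leaving out 1 library ended the call of Jam2 for 2D replicates 1, 2 and 3 and batch 1 replicates 1, 3 and 5 (-0.39 to -0.30), and that of Tjp1 for 2D replicates 1 and 2 and batch 1 replicates 3, 4 and 5 (0.25 to 0.30). F11r, Cxadr, Marveld2 and Ildr2 were not called. 

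Matrigel organoids are spheres and collagen organoids are branched at the same day. In Matrigel, Cldn23 (1.42 ± 0.202 SE, 2.67-fold), Cldn6 (1.43 ± 0.351, 2.70-fold), Cldn3 (1.4 ± 0.381, 2.65-fold) and Cldn2 (0.65 ± 0.196, 1.57-fold) were higher than in collagen with no overlap, and Cldn18 was lower with no overlap (-0.39 ± 0.179, or -1.06 against all 8 collagen libraries of day 13). Cldn7 (0.49 ± 0.308) and Cldn12 (-0.21 ± 0.187) overlapped. Over all genes 6.62% were called higher and 6.29% lower, and of the 61 junction genes 13 and 5 (10 in all without Matrigel replicate 1 and 11 without replicate 2). St14 rose (3.20 ± 0.392, adjusted p = 3.55e-07, edgeR), from 0.48 to 4.73 CPM in collagen to 18.1 to 22.4 CPM in Matrigel, and Epcam rose (1.56 ± 0.182, adjusted p = 8.64e-07), from 45.5 to 75.1 to 155 to 183 CPM. Amot (1.19), Ocln (0.48), Cxadr (0.47) and Tjp1 (0.45) were also called higher, and Klf4 (-1.35 ± 0.143, adjusted p = 5.54e-07) and Ildr1 (-1.10) lower. The other 8 membrane proteins tested, with Tjp3 (-0.14), were not called. Against all 8 collagen libraries, Tjp1 (-0.06, adjusted p = 0.93), Cxadr (0.32, adjusted p = 0.224) and Ildr1 (-0.66, adjusted p = 0.438) were not called. Leaving out 1 library ended the call of Tjp1 for each Matrigel replicate and for batch 1 replicates 1 and 2 (0.37 to 0.51), that of Cxadr for Matrigel replicate 2 (0.43, adjusted p = 0.146) and that of Ildr1 for Matrigel replicate 1 (-0.98, adjusted p = 0.107).

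KPC against KC organoids in the same batch asks what differs between the lines. Beside Cldn7, Cldn3, Cldn4 and Cldn6, which were higher in KPC, Cldn12 was higher (0.70 ± 0.257 SE) and Cldn18 lower (-1.60 ± 0.199, 3.03-fold), all with no overlap, and Cldn2 (-0.19 ± 0.264) and Cldn23 (0.15 ± 0.283) overlapped. Against all 8 KC libraries of day 13, Cldn18 differed by -0.91. Of all genes, 9.58% were called higher and 10.4% lower, and of the 61 junction genes 10 and 6 (11 and 4 when scaled by library totals alone, and 10 in all without KPC replicate 2). With library totals alone, 1265 of all genes were called higher and 598 lower, against 1068 and 1155 with TMM. Ildr1 rose from 4.97 to 40.6 CPM on average (3.02 ± 0.429, adjusted p = 2.79e-06, edgeR), but its KC level also differed between the batches (-2.22 ± 0.416, batch 2 minus batch 1, adjusted p = 5.77e-05). Esrp1, an epithelial splicing factor (2.4 ± 0.608, adjusted p = 0.00375), and St14 (2.01 ± 0.513, adjusted p = 0.00393) rose. Of the stabilizer list, Spint1 (1.32) and Epcam (0.59 ± 0.205, adjusted p = 0.0548) were called higher and Spint2 (-0.37) lower. Clmp (-1.47), Ehf (-1.14), Jam2 (-0.70) and Lsr (-0.35) fell. Lsr lost its call in 9 of 13 alternatives (adjusted p up to 0.533), among them without any 1 library but KC replicate 3, Jam2 in 6 (up to 0.221), without any 1 library but KPC replicate 1 or against all 8 KC libraries, and Epcam in 5 (up to 0.299), among them without KC replicate 1 or 3 or KPC replicate 2 or 3. The other 7 membrane proteins, among them Ocln (-0.11 ± 0.147), Marveld2 (0.20) and Marveld3 (-0.31), and Tjp1 (-0.14) and Tjp3 (-0.43) were not called.

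The batches of KC collagen organoids of day 13 show how far a claudin moved with cells, gel and day held the same. Cldn18 (1.36 ± 0.178 SE) and Cldn12 (-1.02 ± 0.228) differed with no overlap. Cldn2 (-0.93 ± 0.224), Cldn3 (0.52 ± 0.458), Cldn6 (0.18 ± 0.468), Cldn7 (0.03 ± 0.362) and Cldn23 (0.04 ± 0.254) overlapped. Of all genes 19.3% were called higher in batch 2 and 18.1% lower, and of the 61 junction genes 20 and 7 (17 in all without batch 2 replicate 3). Magi3 (1.96 ± 0.201, adjusted p = 6.45e-08, edgeR), Tjp1 (1.12 ± 0.161, adjusted p = 7.96e-06), Ildr2 (0.89), Epcam (0.86), F11r (0.54), Marveld3 (0.45), Cxadr (0.37) and Lsr (0.29) rose, Esrp1 was called higher at 0 to 5.33 CPM against 0 to 2.10, and Ildr1, Snai2 (-1.60) and Cdx2 (-1.02) fell. Marveld3 lost its call in 9 of 14 alternatives (adjusted p up to 0.302), among them without batch 1 replicate 1, 2 or 3 or batch 2 replicate 1 or 3, Lsr in 5 (up to 0.539), among them without batch 1 replicate 4 or batch 2 replicate 1 or 2, and Cxadr in 3 (up to 0.343), among them without batch 2 replicate 2 or 3. Ildr2 lost it without batch 2 replicate 2 (0.64, adjusted p = 0.246), Snai2 without batch 2 replicate 3 (-1.33, adjusted p = 0.101), and Esrp1 in 5 of 13 alternatives, with 0.95 (adjusted p = 0.552) without batch 2 replicate 3 and adjusted p up to 0.134 without batch 1 replicate 1, 3 or 4 or batch 2 replicate 1. Matrigel organoids, day 7 organoids and 2D cells are compared with batch 1 of day 13 above, and KPC organoids with batch 2.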

How the data were processed

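Bulk RNA of 23 libraries in 6 groups was analyzed. The authors built 3′-end libraries of poly(A) RNA with UMIs, aligned reads to GRCm38 and made gene-wise UMI tables with the Drop-seq pipeline v1.0 and GENCODE M25. The deposited values are raw counts of 27207 genes, without normalization. Here, in R 4.3.3, 1 edgeR 4.0.16 model of all libraries (TMM scaling, low counts removed by filterByExpr, 11144 genes left) gave each comparison by its quasi-likelihood test, and genes with a Benjamini-Hochberg adjusted p under 0.1 over all tested genes were called. The SE is that of the fit. The members and gene lists were chosen with earlier results of these data known, so that members have no p. The p-values and counts of calls of the listed genes are read with that limit. Of 75 listed junction symbols, 72 were in the table and 61 were tested. Named were, per comparison, up to 3 called genes at each end, the membrane proteins, Tjp1, Tjp3 and Epcam, and a few genes and alleles are not reported here. Spint1, Spint2, St14 and Twist1 were also named in some comparisons, chosen after their values were seen. Likeness is Pearson's r of log2 CPM (prior count 2). Gene positions are from GENCODE M21 (GRCm38) and promoters from RefSeq (GRCm38.p6), which held 9 of the 10 members. Alternatives were other scalings, DESeq2 1.42.0, no filter, 2 groups alone, a replicate block, a threshold of 0.05, all 8 KC collagen libraries, each library left out and, added after seeing the data, 2D replicates 1 to 3 or 4 to 6 left out together. On simulated counts, 98 to 100% of 4-fold and 61 to 85% of 2-fold changes were recovered across the 6 comparisons, with 7.37 to 11.9% false calls. Changes were put only into a small set of genes above a minimum level, so that these rates do not cover genes with few counts. Pairs of replicates differed by more than sampling noise (chi-square per degree of freedom 1.25 to 30.6 over 37 pairs). No column was left unmapped.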

Additional observations from a re-analysis of the deposited data

Results flagged for a closer look

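Cldn3 in the 2D libraries had 1 value apart from the rest, 4.85 CPM in replicate 2 against 1.83 to 2.88 CPM in the other 5 libraries, which rests on 5 counts. It was the only one of 16 sets of 5 or 6 libraries, over the 7 tested members and their sum, with a value this far from the others, and chance gives about 1 in 20.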

How the results depend on the processing

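Junction genes called in KPC against KC numbered 16, and 10 at a threshold of 0.05. With only the 2 compared groups in the fit, 1856 of all genes were called in Matrigel against collagen (1439 with all groups). The same choice gave 4483 in day 7 against 2D (5706 with all groups). In Matrigel against collagen, scaling by library size alone gave 11 junction genes (18 with TMM) and 954 of all genes (1439 with TMM), and it moved the median log2 fold change of all genes to 0.20 in day 13 against 2D, 0.14 in day 7 against 2D, 0.13 in KPC against KC and -0.18 between the batches. Leaving out 1 library at a time gave 10 to 19 junction genes and 901 to 1427 of all genes for Matrigel (lowest without Matrigel replicate 1, and 11 junction genes without replicate 2), 10 to 14 for KPC (lowest without KPC replicate 2) and 17 to 28 between the batches (27 with all libraries, lowest without batch 2 replicate 3). Against all 8 KC collagen libraries of day 13, Tjp1 in Matrigel was -0.06 and Cldn12 in KPC -0.05, and Jam2 at day 13 against 2D was 0.02 without the 2D replicates 1 to 3; the cause was not tested. Cldn18 from day 7 to day 13 was 0.44 with the 8 libraries. Replicate numbers do not pair the libraries (correlation of deviations -0.119 to 0.188 over 20 pairs, 1 above 0.1), and a replicate block gave 36, 42, 36, 20, 17 and 28 junction genes in the order day 7 and day 13 against 2D, day 13 against day 7, Matrigel, KPC and batches. Over all alternatives, 626 member log2 fold changes stayed within 1 SD of the replicates, 18 moved further, and that of Cldn12 in KPC is given above. Signs also turned for Cldn12 in Matrigel (0.07 with the 8 libraries) and, between the batches, in 1 alternative for Cldn6, 5 for Cldn7 and 3 for Cldn23. Genes with few counts, such as Cldn3, Cldn7 and Cldn23 at day 7, are limited by depth.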
